A study of Mus musculus with 12 samples.

Results

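Neurotrophins, GDNF and their receptors were followed in RNA of dermal papilla (DP) cells, the mesenchymal cells at the base of the hair follicle. The 8 genes were Bdnf, Ntf3 and Gdnf, which encode secreted ligands, and Ngfr, Ntrk2, Ntrk3, Gfra1 and Gfra2, which encode receptors. They were chosen by symbol, and all 8 were present in both tables, which hold 15209 genes at P14 and 15334 at P16, with 14986 in common. All 8 passed the filter on low values in every comparison. RNA-seq libraries, 12 in all, came from 3 control and 3 dMF1/2 mice on each of 2 days, P14 and P16. The tables hold 19302358 to 29860750 reads per library. The labels describe every library as sorted primary DP cells in anagen, the growth phase of the hair follicle.

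In dMF1/2 mice (Cor-cre/+; Fgfr1Flox/Flox; Fgfr2Flox/Flox) the receptor genes Fgfr1 and Fgfr2 were deleted by a Cre driven from the Corin locus, which in skin acts in the DP after birth. Both genotypes carried a Cre-dependent YFP reporter by which the cells were sorted. The labels call the controls wild type, whereas the methods give them as Cor-cre/+; Fgfr1Flox/+; Fgfr2Flox/+ or as mice without Cre and with floxed alleles. Sorting on the reporter requires Cre, so the sorted controls of the first kind would lack a copy of each receptor gene. Catagen, the regression phase, starts around P18 in controls of this background. Each library was the DP of a separate mouse, so the p-values rest on the spread between mice. In the main tests this spread includes the part that same-numbered libraries of a day shared. Fgfr1 counted 8885 ± 1119 normalized reads in controls and 6731 ± 583 in dMF1/2 mice at P14 (SD, n = 3 each), and 10323 ± 2030 and 7264 ± 929 at P16. Fgfr2 counted 4783 ± 260.0 and 4483 ± 766 at P14, and 5079 ± 298 and 5081 ± 838 at P16. Neither gene was called on either day (adjusted p = 0.501 and 0.974 at P14, 0.130 and 0.978 at P16, limma). These counts cover whole genes, reads outside the floxed exons included, and so do not by themselves check the deletion.

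Neurotrophins signal through receptor tyrosine kinases of the Trk family and through p75NTR, the product of Ngfr. BDNF binds TrkB, encoded by Ntrk2, and NT-3 binds mainly TrkC, encoded by Ntrk3. GDNF and neurturin bind GFRα1 and GFRα2, which are anchored to the membrane by a lipid and need the kinase Ret, or another partner such as NCAM, to pass the signal into the cell. In skin these factors are known as survival factors of sensory and autonomic nerve fibres, and neurotrophins have been studied as regulators of the hair cycle.

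The genes lie at chr2:109674700-109727007 on the plus strand (Bdnf, ENSMUSG00000048482), chr6:126101412-126166910 on the minus strand (Ntf3, ENSMUSG00000049107) and chr15:7811011-7837575 on the plus strand (Gdnf, ENSMUSG00000022144) of GRCm38. The neurotrophin receptors lie at chr11:95568818-95587735 on the minus strand (Ngfr, ENSMUSG00000000120), chr13:58806596-59133970 on the plus strand (Ntrk2, ENSMUSG00000055254) and chr7:78175959-78738012 on the minus strand (Ntrk3, ENSMUSG00000059146). Gfra1 and Gfra2 lie at chr19:58235604-58455909 on the minus strand (Gfra1, ENSMUSG00000025089) and chr14:70890130-70979838 on the plus strand (Gfra2, ENSMUSG00000022103). No member shares a chromosome with another.

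RefSeq (GRCm38.p6) gives 14 start sites for 6 of the 8 genes. The windows of 250 bases upstream of the start sites of Ntf3 and Gfra1 are shown because these members carry the genotype difference nearest to the threshold and the decline shared by both genotypes. They are written 5′ to 3′ on the strand of the gene, and the capitals mark matches to the motifs searched.
Ntf3, start site nearest the 5′ end of the gene, chr6:126166745-126166994, minus strand: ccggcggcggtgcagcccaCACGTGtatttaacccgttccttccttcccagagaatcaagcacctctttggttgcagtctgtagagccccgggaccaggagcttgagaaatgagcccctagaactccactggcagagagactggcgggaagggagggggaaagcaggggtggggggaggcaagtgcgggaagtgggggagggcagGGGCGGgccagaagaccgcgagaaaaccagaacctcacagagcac
Ntf3, second start site, chr6:126164961-126165210, minus strand: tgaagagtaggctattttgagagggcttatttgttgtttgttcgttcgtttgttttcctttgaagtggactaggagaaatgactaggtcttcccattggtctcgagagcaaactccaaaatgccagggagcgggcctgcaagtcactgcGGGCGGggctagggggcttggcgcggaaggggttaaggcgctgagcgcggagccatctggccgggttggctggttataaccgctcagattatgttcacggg
Gfra1, chr19:58455399-58455648, minus strand: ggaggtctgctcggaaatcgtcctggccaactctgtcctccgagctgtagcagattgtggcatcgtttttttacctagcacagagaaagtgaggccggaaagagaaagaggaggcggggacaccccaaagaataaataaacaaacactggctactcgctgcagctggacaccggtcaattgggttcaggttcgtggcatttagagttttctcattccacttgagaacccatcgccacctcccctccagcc
Both strands were searched for AP-1 (TGANTCA), CRE (TGACGTCA), TCF/LEF (CTTTGAT), ETS (CCGGAAG), E-box (CACGTG) and GC box (GGGCGG) letters, none of which overlapped in these windows. The first Ntf3 window held an E-box, found in 6.02% of all 32851 upstream windows, and a GC box, found in 32.7% of them. The second Ntf3 window held only a GC box, and the Gfra1 window held no match. AP-1, CRE, TCF/LEF and ETS letters, which occur in 6.75%, 1.55%, 3.21% and 6.91% of all windows, were in none of the 3 windows.

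Levels were compared between genes as normalized reads per kb of exon, after all 12 libraries had been scaled together. Gfra2 was the most abundant of the 8 genes on this scale in every group, and the ligands were among the least abundant. In P14 controls Gfra2 reached a mean of 1203 (957 to 1479), followed by Gfra1 at 185 (167 to 213) and Ntrk2 at 171 (150 to 209), which overlapped each other. Ngfr followed at 105 (93.1 to 119), Ntf3 at 71.7 (53.4 to 91.4) and Ntrk3 at 45.6 (44.4 to 47.5), with no overlap between neighbours. Bdnf at 33.8 (31.5 to 36.1) and Gdnf at 31.8 (15.4 to 55.9) came last and overlapped. In P16 controls the genes stood in the same order, with the ranges of Gfra2 (193 to 541) and Gfra1 (119 to 138) closer together. Ntf3, Ntrk3, Bdnf and Gdnf (44.99 to 49.7, 38.8 to 52.6, 29.7 to 60.6 and 25.5 to 44.97) then formed a run of overlapping neighbours. The exon lengths join all annotated isoforms, including long untranslated ends of Ntrk2 (19292 bases) and Ntrk3 (30170 bases), so per-kb values of these genes are low estimates if shorter forms prevail. Gene counts do not separate the forms of TrkB and TrkC with a kinase domain from those without one.

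Partners of the members differed widely in level. Ret, the kinase partner of the GFRα receptors, was counted in all 12 libraries, with group means of 18.4 to 24.6 normalized reads per kb. Nrtn, encoding neurturin, the preferred ligand of GFRα2, reached group means of 74.0 to 93.7 per kb. Artn, encoding artemin, stayed at 9.17 to 14.2 per kb. In contrast, Gfra3, which encodes the artemin receptor, was counted with 0 to 17 reads per library. Ntf5, encoding NT-4, had 1 to 8 reads and Pspn, encoding persephin, 2 to 12 reads per library. These 3 genes did not pass the filter and were not tested, and at such counts a difference between groups was not detectable.

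**Figure D1:**
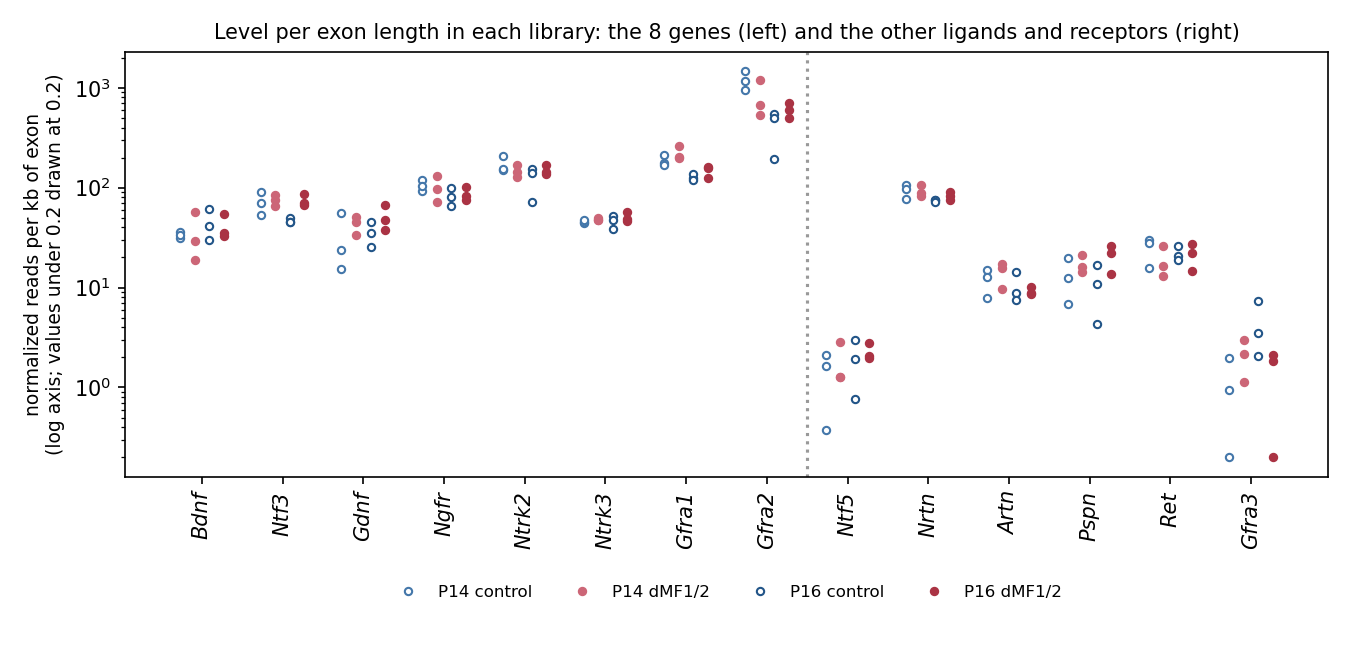
Normalized reads per kb of exon (vertical log axis) of the 8 genes, left of the dotted line, and of 6 other ligands and receptors, right of it. Each point is 1 of the 12 libraries, open for control and filled for dMF1/2 mice. Gfra2 has the highest points of the 8 genes, while Gfra3 and Ntf5 lie lowest.

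Sorted cells of the follicle base can include other cells, so marker genes were examined. All 15 DP markers listed were present in both tables. Their summed level ranged from 154245 to 224134 normalized reads in P14 controls, 133870 to 225019 in P14 dMF1/2, 76557 to 131607 in P16 controls and 148610 to 207563 in P16 dMF1/2 mice. Corin, the gene whose locus drives Cre, followed the same order, with 20793 to 39219 in P14 controls and 2736 to 12145 in P16 controls against 14983 to 26844 in P16 dMF1/2 mice. Nerve-associated markers were low. The 9 Schwann cell markers in both tables summed to 861 to 1457 normalized reads per library, with Sox10, the factor that defines these cells, at 1.09 to 15.3. The 5 neuronal markers in both tables summed to 131 to 277. Endothelial and pericyte markers, 7 genes, summed to 19249.8 to 24547 in P16 controls, above the 8183 to 15335 of the other 9 libraries. Most of this sum came from Rgs5 and Cspg4, with means of 6667 and 5809 over the 12 libraries. Means of the remaining genes of this list were 11.5 (Emcn) to 386 (Tek). Bulk RNA cannot tell fewer cells of a type from less RNA per cell.

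Some libraries stood apart. The P14 libraries numbered 1 of both genotypes had 1269142 and 1767056 normalized reads of Col1a1, against 4132279 to 4248894 in the other P14 libraries. P16 control replicate 1 had the lowest Corin, Gfra2 and Ntrk2 of all libraries.

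The first comparison asked how the members changed in control DP from P14 to P16, as the follicle approached the end of anagen. Gfra1 and Gfra2 fell in controls. Gfra2 counted 5236, 4149 and 3386 normalized reads in the 3 P14 control libraries and 682, 1915 and 1779 in the 3 P16 control libraries. Every P16 library was below every P14 library, with replicate 1 the lowest. The log2 fold change was -1.66 ± 0.38 (SE, adjusted p = 0.0166, limma; exact two-sided permutation p = 0.1, the smallest possible), which corresponds to a 3.16-fold decline. Without P16 control replicate 1 the change was -1.18 (adjusted p = 0.0449), and without P14 control replicate 1 it was -1.5002 and no longer called (adjusted p = 0.0634). In a fit of the 6 control libraries alone, the adjusted p was 0.0524.

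Gfra1, encoding the main co-receptor of GDNF, counted 1164, 963 and 916 normalized reads at P14 and 685, 758 and 649.9 at P16 in controls. The ranges did not overlap, and the log2 fold change was -0.54 ± 0.14 (adjusted p = 0.0267, limma). The call was lost without P14 control replicate 1 (0.0987), P14 control replicate 2 (0.0549), P16 control replicate 1 (0.0813) or P16 control replicate 3 (0.0836), with changes between -0.43 and -0.60 over all such omissions.

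Ntf3, the NT-3 gene, counted 91.5, 157 and 121 normalized reads in P14 and 85.2, 78.5 and 77.1 in P16 controls, again without overlap. Its log2 fold change of -0.58 ± 0.19 missed the threshold (adjusted p = 0.0633, limma) and passed it with DESeq2 (0.0360), with edgeR (0.0499) and without P14 control replicate 1 (0.0338, log2 fold change -0.77). The TrkB gene Ntrk2 had a log2 fold change of -0.55 ± 0.25 (adjusted p = 0.152). Its P16 control libraries had 1373, 2964 and 2696 normalized reads, with replicate 1 far below the P14 range of 2903 to 4027, and without that library the log2 fold change was -0.20 (adjusted p = 0.481). Ngfr (-0.38 ± 0.22), Bdnf (0.31 ± 0.36), Gdnf (0.31 ± 0.40) and Ntrk3 (0.01 ± 0.11) were not called. Under omission of any single library the Ngfr change ranged from -0.53 to -0.22 and the Bdnf change from 0.045 to 0.56. Gfra4, which encodes the persephin receptor and is not a member, had 0.12 ± 0.27 (adjusted p = 0.788). Ntrk3 was the steadiest member, with all 12 libraries between 1172 and 1712 normalized reads.

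Thus 2 of 8 members were called in controls, both lower at P16, where 14.5% of the 13415 genes tested were called in either direction. The 3 members Ntf3, Gfra1 and Gfra2 had P16 ranges entirely below their P14 ranges, as did 18.4% of all genes tested. The median log2 fold change of the members was -0.46, against 0.01 over all genes. These differences ran beside the lower DP marker sum of P16 controls, in which 6 of 15 markers were called lower (median log2 fold change -0.95), and beside higher dissociation-stress genes, of which 3 of 9 were called higher (Atf3, Hspa1a and Hspa1b), as were the endothelial and pericyte markers Cspg4 and Emcn, with Tek lower, and the melanocyte markers Kit and Mitf. The part of these shifts in the members' values was not tested.

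**Figure D2:**
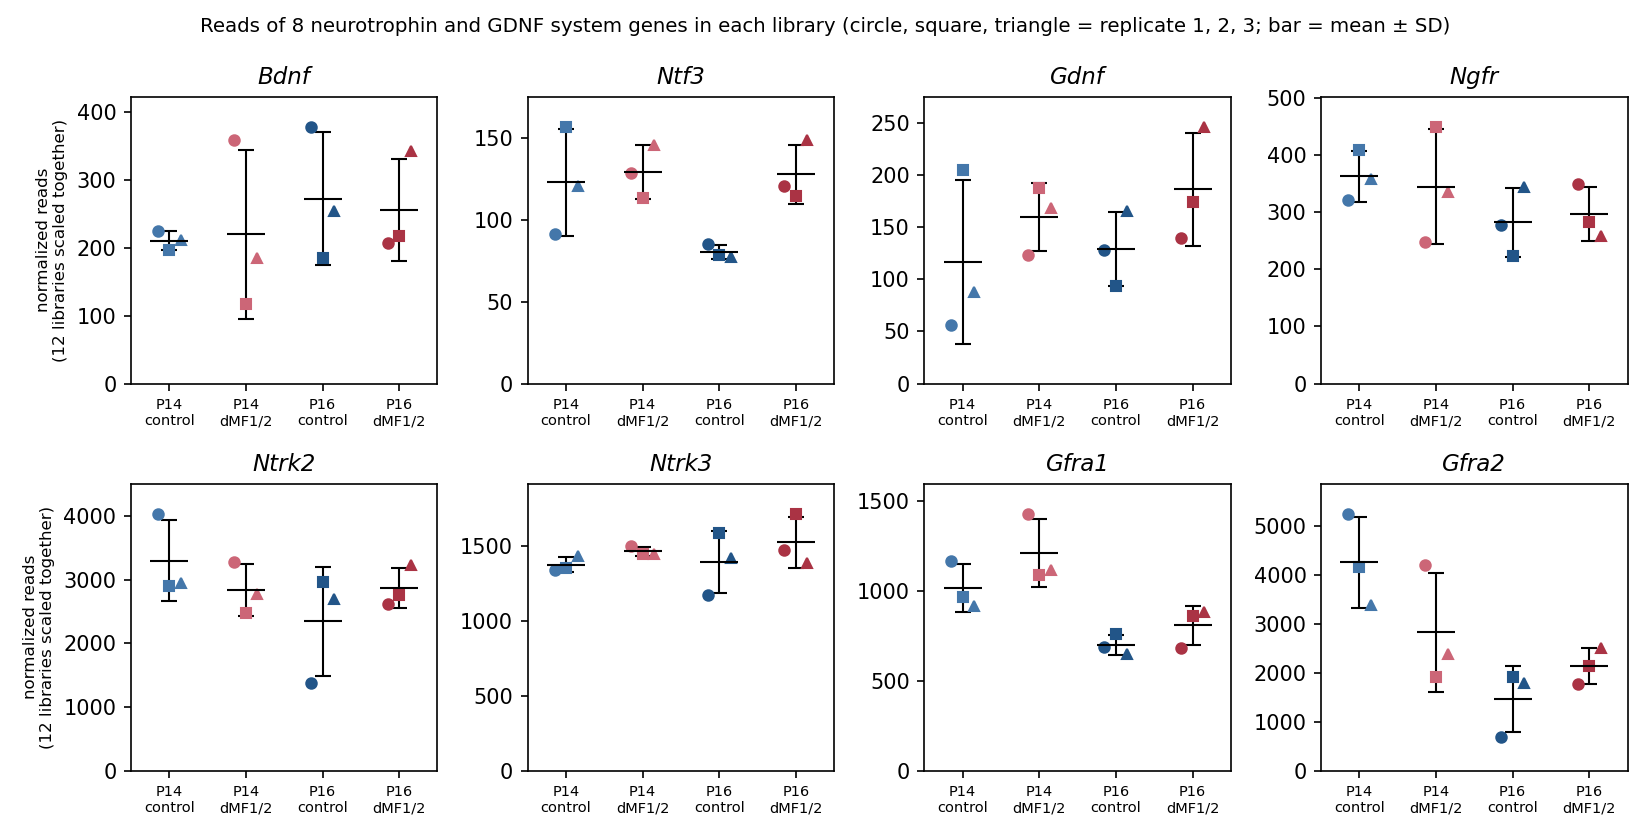
Normalized reads of each of the 8 genes in the 12 libraries, scaled together, in 4 groups of 3 (horizontal axis). Circles, squares and triangles are replicates 1, 2 and 3, and bars show mean ± SD. Gfra1 is lower at P16 in both genotypes, Gfra2 falls from 3386 to 5236 in P14 controls to 682 to 1915 in P16 controls, and Ntf3 is lowest in P16 controls.

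In the dMF1/2 DP, Gfra1 again fell from P14 to P16. It counted 1424, 1089 and 1113 normalized reads at P14 and 683, 859.7 and 879.7 at P16, without overlap. The log2 fold change was -0.58 ± 0.14 (adjusted p = 0.0336, limma). This call was the only one among the 8 members, where 5.8% of genes tested were called, and 14.4% of genes had all P16 dMF1/2 libraries below all P14 ones. It was lost on omission of any of 5 of the 6 dMF1/2 libraries (P14 replicates 1, 2 and 3 and P16 replicates 1 and 3, adjusted p = 0.0550 to 0.140), and in a fit of those 6 libraries alone (0.0773). The direction held in each, with changes of -0.46 to -0.65. Markers moved beside it. Log2 fold changes were above 0 for 8 of 9 dissociation-stress genes, with 0 called by limma or edgeR, 3 at an unadjusted p under 0.05 and 2 called by DESeq2 (Hspa1a and Hspa1b), and for 8 of 8 hair follicle keratinocyte markers, with 0 called by any of the 3 tools and 1 at an unadjusted p under 0.05. The muscle marker Mylpf was called lower by limma, and all 4 muscle markers tested had log2 fold changes below 0. The proliferation marker Pcna was called higher by limma, but 5 of the 6 proliferation markers had log2 fold changes below 0 (median -0.58). The part of these shifts in the Gfra1 decline was not tested.

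Gfra2 counted 4206, 1906 and 2373 normalized reads in P14 dMF1/2 and 1778, 2142 and 2508 in P16 dMF1/2 libraries, so the groups overlapped. The log2 fold change of -0.33 ± 0.38 was not called (adjusted p = 0.659, limma), and without P14 dMF1/2 replicate 1 it was -0.00. Ntf3 counted 129, 113 and 146 at P14 and 120.4, 115 and 149 at P16 (log2 fold change -0.02 ± 0.19). The remaining members had log2 fold changes between -0.18 (Ngfr) and 0.33 (Bdnf), none called. The median of the members was 0.00, against 0.01 over all genes.

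At P16, dMF1/2 mice were compared with controls of the same age, in the scaling deposited for that day. The difference closest to the threshold was that of Ntf3, which was higher in dMF1/2 mice. Its P16 control libraries had 86.4, 79.8 and 78.1 normalized reads and the dMF1/2 libraries 123, 117 and 151. The groups did not overlap, and all 3 dMF1/2 libraries exceeded the control of the same number, by 1.42-, 1.46- and 1.94-fold. The log2 fold change of 0.66 ± 0.15 had an adjusted p of 0.0529 with limma (exact two-sided permutation p = 0.1, the smallest possible). With the replicate number as a block, the adjusted p was 0.0414, and with DESeq2 it was 0.0262, while edgeR gave 0.0531. Under omission of any P16 library the change ranged from 0.55 to 0.74 with adjusted p from 0.0845 to 0.164. Ntf3 was the only member called under the block, by which 10.4% of all genes were called, or with DESeq2, which called 8.35%. It stood beside a DP marker sum that was higher in P16 dMF1/2 mice. Of the 15 DP markers, limma called Alpl, Alx4 and Fgf10 higher and Crabp1 lower, and DESeq2 called 8, among them Prdm1, which was lower (log2 fold change -1.52). Other markers also moved in both directions. All 8 hair follicle keratinocyte markers tested had log2 fold changes above 0 (median 0.55), with 0 called by limma, DESeq2 or edgeR and 0 at an unadjusted p under 0.05, and their sum was 355 to 1055 normalized reads in controls and 669.9 to 873 in dMF1/2 mice. All 9 dissociation-stress genes had log2 fold changes below 0 at P16, with Atf3 called lower, and their sum was 350504 to 488709 normalized reads in controls and 313124 to 332432 in dMF1/2 mice. The endothelial and pericyte sum was 19249.8 to 24547 in controls and 8183 to 11149 in dMF1/2 mice, with Cspg4 called lower. Of 8 Schwann cell markers limma called Erbb3 lower (log2 fold change -1.61), 3 had log2 fold changes above 0, and DESeq2 called S100b higher as well (0.74). The part of these marker shifts in the Ntf3 difference was not tested.

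Gfra2 counted 691, 1947 and 1802 normalized reads in P16 controls and 1818, 2179 and 2556 in P16 dMF1/2 mice. The ranges overlapped slightly, and the log2 fold change of 0.69 ± 0.36 was not called (adjusted p = 0.362, limma). It rested largely on P16 control replicate 1, without which it was 0.21. Gdnf counted 130.1, 95.4 and 167 in controls and 143, 177 and 251 in dMF1/2 mice, which overlapped (log2 fold change 0.53 ± 0.26, adjusted p = 0.320). Ntrk2 (0.37 ± 0.26), Gfra1 (0.21 ± 0.12), Ntrk3 (0.14 ± 0.13), Ngfr (0.09 ± 0.18) and Bdnf (-0.06 ± 0.28) had adjusted p from 0.397 to 0.942. For Ntrk2, omission of P16 control replicate 1 brought the difference down to 0.02, as it did for Ntrk3. Without P16 dMF1/2 replicate 3 the Gdnf difference was 0.32, and that of Gfra1 was 0.33 without P16 dMF1/2 replicate 1.

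With limma 0 of 8 members were called at P16 (1 at an unadjusted p under 0.05; 1 with DESeq2, 0 with edgeR), against 4.32% of the 13457 genes tested. Only Ntf3 had groups without overlap, as did 24.5% of all genes. The log2 fold changes of 7 of 8 members were above 0, with a median of 0.29 against -0.00 over all genes.

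At P14 the genotypes were compared in the same way. With limma 0 of 8 members were called, 0 at an unadjusted p under 0.05, and 0 with DESeq2 or edgeR, where limma called 0.0525% of the 13334 genes tested. The count over all genes rose from 7 to 224 when replicates were blocked by number, and that of the members stayed at 0. Gfra2 counted 5169.6, 4091 and 3342 normalized reads in controls and 4147, 1888 and 2351 in dMF1/2 mice, with a log2 fold change of -0.65 ± 0.30 (adjusted p = 0.733, limma; 0.0895 with the block). The ranges overlapped, although each dMF1/2 library was below the control of its number, at 0.802, 0.462 and 0.703 of its value. Gdnf counted 55.9, 203 and 86.8 in controls and 122, 186 and 167 in dMF1/2 mice (0.64 ± 0.44), a wide spread within the control group. The difference for Gdnf was 0.23 without P14 control replicate 1 and 1.15 without P14 control replicate 2, and that for Gfra2 was -0.97 without P14 dMF1/2 replicate 1 and -0.41 without P14 dMF1/2 replicate 2. Gfra1 was 1.22, 1.14 and 1.22 times the control of its number (0.25 ± 0.14), and its difference was 0.13 without P14 dMF1/2 replicate 1. Ntrk2 (-0.20 ± 0.16), Ngfr (-0.11 ± 0.22), Ntf3 (0.10 ± 0.22), Ntrk3 (0.09 ± 0.07) and Bdnf (-0.08 ± 0.36) had smaller differences. Under omission of any single library that of Ntrk2 ranged from -0.31 to -0.05. Only Ntrk3 had groups without overlap, 1324 to 1415 in controls and 1429.6 to 1478 in dMF1/2 mice, as did 12.7% of all genes. Bdnf varied widely, with 353, 116 and 182 normalized reads in the P14 dMF1/2 libraries.

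**Figure D3:**
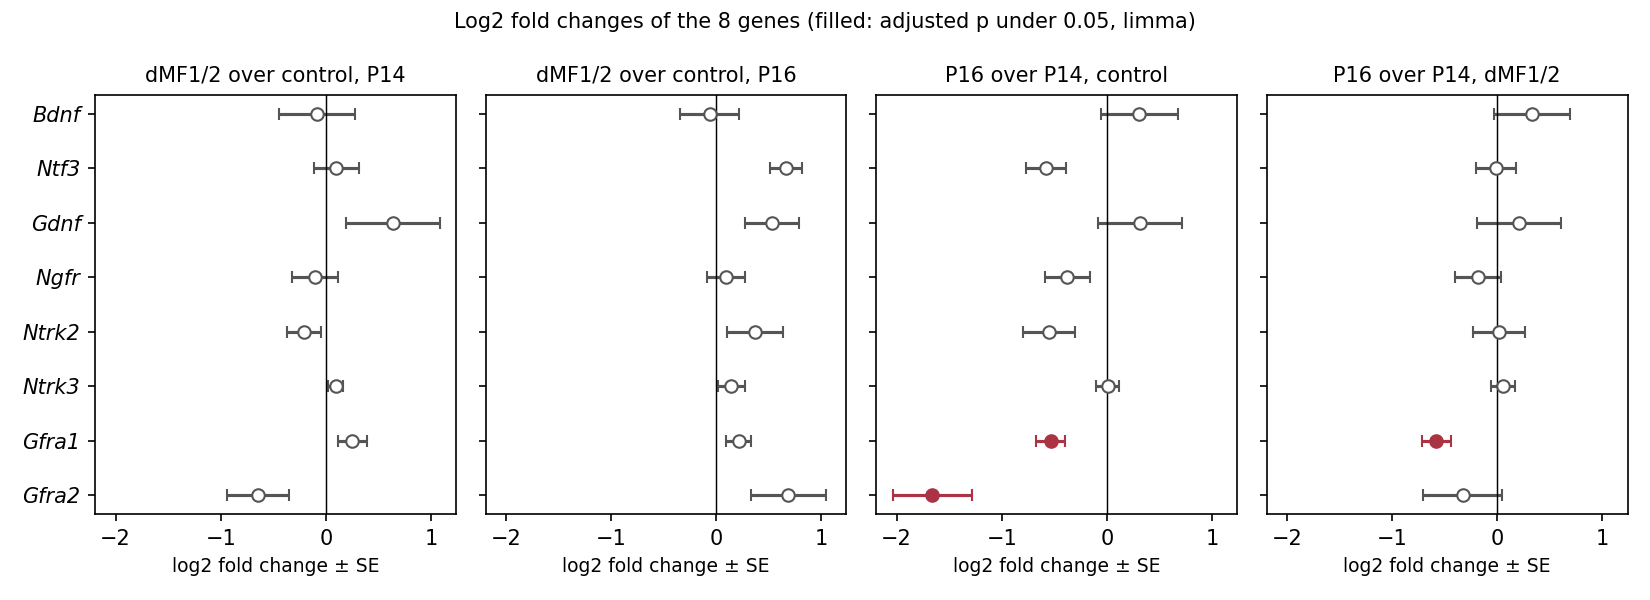
Log2 fold changes (horizontal axis) with standard errors of the 8 genes in 4 comparisons, dMF1/2 over control at P14 and P16 and P16 over P14 in each genotype. Filled points have an adjusted p under 0.05 with limma, which are Gfra1 (-0.54 and -0.58) and Gfra2 (-1.66) between days.

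The interaction of genotype and day tests whether the day change differed between genotypes. For Gfra2 the difference between the day changes, dMF1/2 minus control, was 1.33 ± 0.53 on the log2 scale, with an unadjusted p of 0.0290 and an adjusted p of 0.999996 (limma). With the replicate number as a block, the adjusted p was 0.206. The decline of Gfra2 in controls was thus called and that in dMF1/2 mice was not, but the difference between them did not pass. For Gfra1, which fell in both genotypes, the interaction was -0.04 ± 0.19. For Ntf3 it was 0.56 ± 0.27 and for Ntrk2 0.57 ± 0.35. Without P16 control replicate 1 the interaction was 0.85 for Gfra2 and 0.22 for Ntrk2. With limma 0 of 8 members passed (1 at an unadjusted p under 0.05, and 0 with DESeq2 or edgeR), and limma called 0% of the 13415 genes tested, DESeq2 7 genes.

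Ordered by group mean, Gfra2 ran from P14 control through P14 dMF1/2 and P16 dMF1/2 to P16 control, with every neighbour in that order overlapping. Gfra1 ran from P14 dMF1/2 and P14 control, which overlapped, to P16 dMF1/2 and P16 control, which also overlapped, with a gap between the days. Ntf3 had overlapping values in P14 dMF1/2, P16 dMF1/2 and P14 control, and P16 control lay apart below them. For Bdnf, Gdnf, Ngfr, Ntrk2 and Ntrk3 all neighbouring groups overlapped.

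**Figure D4:**
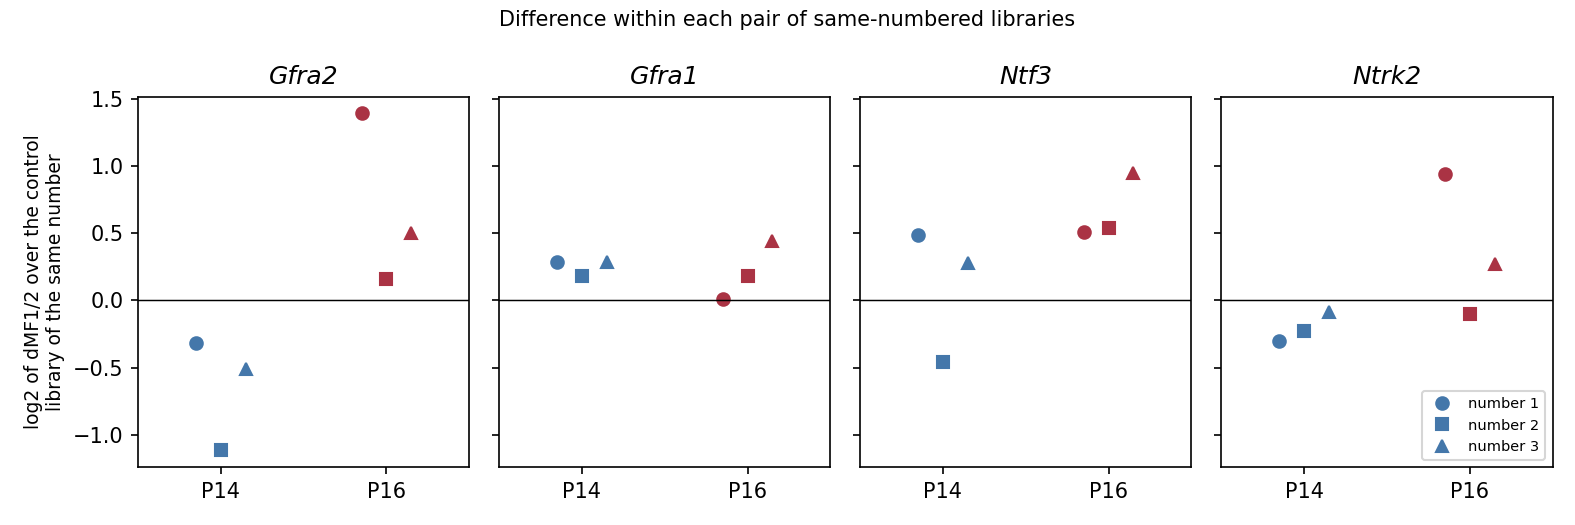
Log2 ratio of each dMF1/2 library to the control library of the same number (vertical axis) at P14 and P16, for Gfra2, Gfra1, Ntf3 and Ntrk2. All 3 Gfra2 ratios are below 0 at P14 (-0.32, -1.11 and -0.51) and above 0 at P16 (1.39, 0.16 and 0.50), and all Gfra1 ratios lie above 0.

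Genes that make, bind or relay these signals were taken from fixed lists, with 57 genes tested besides the members in each comparison, not all of them the same at P16 as between days. In controls 9 of the 57 were called between days by limma (9 with edgeR, 11 with DESeq2), 2 higher and 7 lower at P16, against 14.5% of all genes. Of the lowered genes, 3 take part in processing of neurotrophin precursors or in proteolysis around it. The proprotein convertase genes Furin and Pcsk5 fell by 0.45 ± 0.12 and 1.10 ± 0.30 on the log2 scale, and Plat, which encodes tissue plasminogen activator, fell by 1.08 ± 0.25 (adjusted p = 0.0333, 0.0328 and 0.0183, limma). Among receptors, Sorcs3, a gene of the sortilin family, fell by 2.38 ± 0.40, from 102 ± 18.8 to 21.4 ± 12.4 normalized reads (adjusted p = 0.00490). Sdc3, encoding the GDNF-binding proteoglycan syndecan-3, fell by 0.31 ± 0.09 (0.0364).

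Ngfrap1, encoding a protein that binds the p75NTR death domain, fell in both genotypes, from 464 ± 83.0 to 193 ± 10.1 normalized reads in controls and from 449 ± 57.9 to 202 ± 16.04 in dMF1/2 mice. The log2 fold changes were -1.25 ± 0.14 and -1.14 ± 0.14 (adjusted p = 0.000544 and 0.000733, limma). The adaptor gene Crk rose by 0.34 ± 0.08 in controls and 0.33 ± 0.08 in dMF1/2 mice (0.0212 and 0.0381). In dMF1/2 mice limma and edgeR called these 2 of the 57 genes, against 5.8% of all genes with limma, and DESeq2 called 4, with Furin and Plat added (log2 fold changes -0.40 and -0.83). In controls Ripk2, a kinase gene that acts with p75NTR, rose by 0.47 ± 0.13 (0.0327), and Sh2b1, an adaptor of Trk receptors, fell by 0.29 ± 0.07 (0.0264).

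Between genotypes at P16, 2 of 57 genes were called by limma, both lower in dMF1/2 mice, against 4.32% of all genes. At an unadjusted p under 0.05 there were 13 of the 57, against 2559 of the 13457 genes tested. The same 2 were called by edgeR. DESeq2 called 4, with Mmp3 and Ncam1 added, against 8.35% of all genes with DESeq2. Lingo1, a partner of p75NTR in the Nogo receptor complex, counted 373 ± 13.9 normalized reads in controls and 229 ± 28.4 in dMF1/2 mice (log2 fold change -0.71 ± 0.12, adjusted p = 0.0174, limma). At P14 its difference was of the same size, -0.71 ± 0.20, but was not called (adjusted p = 0.410). Gab2, encoding an adaptor of receptor tyrosine kinases, counted 1430.4 ± 92.9 and 1026 ± 121 (-0.48 ± 0.11, 0.0459). At P14 limma and edgeR called 0 of the 57 genes and DESeq2 called 2. There were 9 at an unadjusted p under 0.05 with limma, against 976 of all 13334 genes. In the interaction limma, DESeq2 and edgeR each called 0. There 3 were at an unadjusted p under 0.05 with limma, against 648 of all 13415 genes. Ret, Nrtn and Artn were called in none of the 5 comparisons by limma, with log2 fold changes between -0.57 and 0.35.

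Genes with the most similar profile over the 12 libraries were sought for the 6 members that varied by at least 1 log2 unit, by the root mean square difference of centred log2 values. For Gfra2 these were Plod2 (0.22), which encodes a collagen-modifying lysyl hydroxylase, Tex40 (0.26) and Hmgb1 (0.27), where the Gfra2 profile itself had a root mean square of 0.75. For Gfra1 they were BC029722 (0.08), Glod4 (0.11) and Hexim2 (0.11), against 0.34 for Gfra1 itself. Ntf3 was most like Abcd2 (0.16), Tbl2 (0.17) and the collagen gene Col15a1 (0.18), against 0.34. Bdnf was most like Socs3 (0.17), an inhibitor of cytokine signalling, with Perm1 (0.23) and Plekhg6 (0.24), against 0.46. Gdnf was most like Gpm6a (0.27), Serpina10 (0.30) and the adhesion gene Vcam1 (0.31), against 0.57. Ntrk2 was most like Dhrs3 (0.13), Zdhhc2 (0.14) and Thsd1 (0.16), against 0.35. All such profiles share the same libraries and their scaling.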

How the data were processed

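RNA-seq of sorted DP cells was performed by the authors on 3 control and 3 dMF1/2 mice at P14 and at P16. Per the labels and methods, ribosomal RNA was depleted, stranded single-end reads were trimmed (Trimmomatic), mapped to mm10 (TopHat2) and counted per Ensembl gene of GRCm38.p4 (HTSeq). The signal values deposited in each day's table are read numbers scaled by DESeq2 size factors, which the authors estimated from that day's 6 libraries. Further columns hold the authors' mean, their log2 fold changes and their standard errors, the score of their test and its p-values, which were not used. Values were whole multiples of 1 read (tolerance 0.001), so reads were recovered.

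Genotypes were compared within a day, and days and the interaction in 1 fit of 12 libraries rescaled by median of ratios over the 14986 shared genes, with limma 3.58.1 in R 4.3.3 on log2(value + 1), genes with a mean of at least 10, Benjamini-Hochberg adjustment over all genes and a threshold of 0.05. Fold changes on this scale understate those of low genes. The plan had named this test for normalized values, and DESeq2 1.42.0 and edgeR 4.0.16 on the recovered reads were alternatives, as were other scalings, pseudocounts, filters, a replicate block and omission of each library. The fit was tested on simulated data. Within a day, libraries of the same number deviated together (correlation across genes 0.586, 0.389 and 0.304 at P14, 0.256, 0.293 and 0.311 at P16). The numbers were treated as pairs only in the replicate block and in the ratios of same-numbered libraries. The main limma tests were unpaired. Exon lengths came from GENCODE M21 and start sites from RefSeq.

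The members and gene lists were chosen with earlier results of these data known. Named besides the members are list genes called by limma in any comparison, 6 further ligands and receptors, Fgfr1 and Fgfr2, and the 3 genes most like each varying member. Outside this rule, Gfra4, Sox10 and Col1a1 are named, as are Mmp3, Ncam1, Prdm1 and S100b, which DESeq2 called. Some genes of the lists are not reported here.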

Additional observations from a re-analysis of the deposited data

Results flagged for a closer look

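The Gfra2 difference between dMF1/2 and control mice changed direction between days. At P14 each of the 3 dMF1/2 libraries was below the control library of its number, and at P16 each was above it, although the ranges of the groups overlapped on both days. The interaction log2 fold change was 1.33 ± 0.53 (SE), and it did not pass adjustment (unadjusted p = 0.0290, adjusted p = 0.999996, limma; 0.206 with the replicate block). Without 1 library at a time it ranged from 0.85 to 1.66. The largest of the 6 paired differences, 1.39 on the log2 scale, was that of P16 control replicate 1, the library with the lowest Gfra2 and Corin.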

How the results depend on the processing

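Over all genes, the counts called moved with DESeq2 (P16 genotypes 582 to 1123, P14 genotypes 7 to 207, dMF1/2 days 778 to 1341, interaction 0 to 7), with the replicate block (1403 at P16, 224 at P14), with 12 libraries in 1 fit (P14, 11), with only the 6 libraries of a genotype (control days 1951 to 806, dMF1/2 days 322), and without both P14 libraries numbered 1, an alternative chosen after seeing the data (interaction, 2). Of the members, 1 (Ntf3) was called at P16 with DESeq2 and with the block where limma called 0. Ntf3 was also gained in control days with DESeq2 and edgeR. The fits of 6 libraries called 1 member in control and 0 in dMF1/2 days. The block changed no other call of a member. Between days the same number does not mark pairs (correlations -0.0545, -0.0621 and -0.130 in control, 0.0292, 0.208 and -0.162 in dMF1/2), and the block then gave 2243 and 944 genes called, with 2 and 1 members.

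Without 1 library at a time, genes called ranged from 149 to 684 at P16, 0 to 18 at P14, 693 to 1945 in control days, 257 to 678 in dMF1/2 days and 0 to 2 in the interaction, and members called from 0 to 0, 0 to 0, 1 to 2, 0 to 1 and 0 to 0. Where an omission left 2 libraries in a group, their spread was pooled with that of the other groups.

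Directions reversed only for differences that were not called. With DESeq2 and edgeR, Bdnf at P14 was 0.069 and 0.074 and its interaction -0.16 and -0.16, and the Gdnf interaction 0.074 and 0.078. Ntrk3 in control days was -0.00042 with edgeR and -0.015 with TMM scaling. Without both P14 libraries numbered 1, Ntf3 and Ngfr at P14 were -0.091 and 0.027 and the Gdnf interaction 0.13. Omission of 1 library reversed Bdnf, Ntf3 and Ngfr at P14 (ranges -0.51 to 0.29, -0.092 to 0.29 and -0.32 to 0.11), Bdnf and Ngfr at P16 (-0.31 to 0.20 and -0.062 to 0.24), Gdnf and Ntrk3 in control days (-0.097 to 0.82 and -0.093 to 0.13), Bdnf, Ntf3, Gdnf, Ngfr, Ntrk2 and Ntrk3 in dMF1/2 days (-0.048 to 0.75, -0.13 to 0.074, -0.014 to 0.39, -0.40 to 0.028, -0.076 to 0.13 and -0.034 to 0.12), and the interactions of Bdnf, Gdnf, Ngfr, Ntrk3 and Gfra1 (-0.36 to 0.44, -0.62 to 0.30, -0.023 to 0.40, -0.072 to 0.15 and -0.15 to 0.080). Of 368 member values under the other alternatives, 351 kept direction and side of the threshold. The cause of these shifts was not tested. With 3 libraries per group, exact permutation cannot go below 0.1.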
